A study of Mus musculus with 6 samples.

Results

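The endothelial identity genes are 10 genes by which the cells that line blood vessels are commonly recognised: Pecam1, Cdh5, Kdr, Flt1, Tek, Vwf, Emcn, Cldn5, Plvap and Esam. They were chosen by name and matched through their Ensembl identifiers, and all 10 were among the 37991 genes listed for each library. Every one of the 10 had at least 1 read in each of the 6 libraries, as did 11066 of all listed genes, and all 10 passed the filter on low counts and were tested.

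The libraries came from mouse tumours of a cutaneous squamous cell carcinoma line, a keratinocyte cancer, and were read by RNA sequencing. In 3 libraries the tumours carried wild-type Kindlin-1, and in the other 3 Kindlin-1 was knocked out (null). The comparison asked how expression differs between tumours with and without Kindlin-1, an adaptor protein, encoded by Fermt1, that binds integrin tails. Libraries are numbered within each genotype in the order of deposit, and the number only names a library. The tissue and cell line labels are the same in both groups. The sources used here do not give host strain, age, implantation site, how the knockout was made or how many clones lie behind each genotype. By their titles, wild-type libraries 1 and 2 share a mouse number and null libraries 2 and 3 share another, although the deposited file of null library 3 is named with a different number. It is not stated whether these are separate tumours of 1 animal, so n = 3 counts libraries and the p-values measure only the spread between them, which may be partly technical.

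Blood vessels are lined by endothelial cells, which tumours recruit from the host as they grow. Vascular endothelial growth factors act through the receptors Kdr (VEGFR-2) and Flt1 (VEGFR-1), and angiopoietins act through Tek (Tie2). VE-cadherin (Cdh5), PECAM-1 (Pecam1), claudin-5 (Cldn5) and ESAM (Esam) hold neighbouring cells together at their junctions. Von Willebrand factor (Vwf) is stored for release at injury, endomucin (Emcn) coats the luminal surface of capillaries and veins, and PV-1 (Plvap) forms the diaphragms of fenestrae and caveolae.

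Depth limits these values unevenly. Wild-type library 2 was the shallowest, with 161711 reads in genes, and null library 2 the deepest, with 31487255, and the reads of the 10 genes came to between 60 and 8748 a library. One read was worth 6.14 CPM (counts per library total on the usual CPM scale, after TMM scaling, which corrects totals for composition) in wild-type library 2, and at most 0.921 CPM in any other. Fermt1, the targeted gene, was counted 16, 2 and 1040 times in the wild-type libraries, or 12.5, 12.3 and 64.9 CPM. In the null libraries it was counted 0, 2 and 2 times, at most 0.393 CPM (log2 fold change -8.18, edgeR adjusted p = 0.000297). Of 8 keratinocyte markers, which the tumour type should carry, 5 were tested, 1 fell and 0 rose, with a median log2 fold change of 0.4 and a summed level of 66.7 to 117 CPM in wild-type and 44.6 to 91.2 CPM in null libraries. That median is the value of Krt8 (SE 2.34), which ran from 0.0317 CPM in null library 2 to 36.8 CPM in null library 1. Krt14 and Krt18 were lower in all 3 null libraries, and the groups of Krt8, Trp63 and Cdh1 overlapped. Krt5, which was not tested, had at most 5 reads in any library. Trp63, the basal keratinocyte factor, did not pass (log2 fold change 0.53, edgeR adjusted p = 0.461). The marker that fell, Krt14, averaged 36.2 ± 9.49 CPM with wild-type Kindlin-1 and 8.6 ± 3.03 CPM without it (SD, n = 3; edgeR adjusted p = 0.01), a call lost in limma-voom (adjusted p = 0.0502).

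None of the 10 endothelial identity genes passed the test for a difference between null and wild-type tumours. The count was 0 of 10 with edgeR's quasi-likelihood test at a Benjamini-Hochberg adjusted p of 0.05 over 11887 genes, beside 5.79% of all tested genes (2.26% higher and 3.52% lower in null tumours). The same count was 0 with DESeq2, which called 6% of all tested genes, and 0 with limma-voom, which called 8.08%. With each of these 3 tools 0 members had an unadjusted p under 0.05, against 25.1% of all genes with edgeR. Adjusted p values ran from 0.262 (Vwf) to 0.993 (Tek). Fold changes lay between -0.71 and 0.71 on the log2 scale, 4 of 10 of them below 0, as were 49.3% of all tested genes. Their median of 0.03 stood beside 0.0106 over all tested genes. In bulk tissue fewer cells of a type and less RNA per cell cannot be told apart, and this holds for each level below.

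Added up within a library, the 10 genes stood at 364, 369 and 229 CPM in wild-type libraries 1 to 3 and at 331, 277 and 311 CPM in null libraries 1 to 3. Wild type averaged 320 ± 79.5 CPM and null tumours 306 ± 27 CPM (SD, n = 3). The null libraries fell inside the wild-type range. Wild-type library 3 was the lowest of the 6 and the only one with a 95% exact Poisson interval (221 to 236 CPM) below all the others, while the interval of wild-type library 2 was the widest (281 to 474 CPM). These intervals, like all the intervals on single libraries, cover counting error only.

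**Figure D1:**
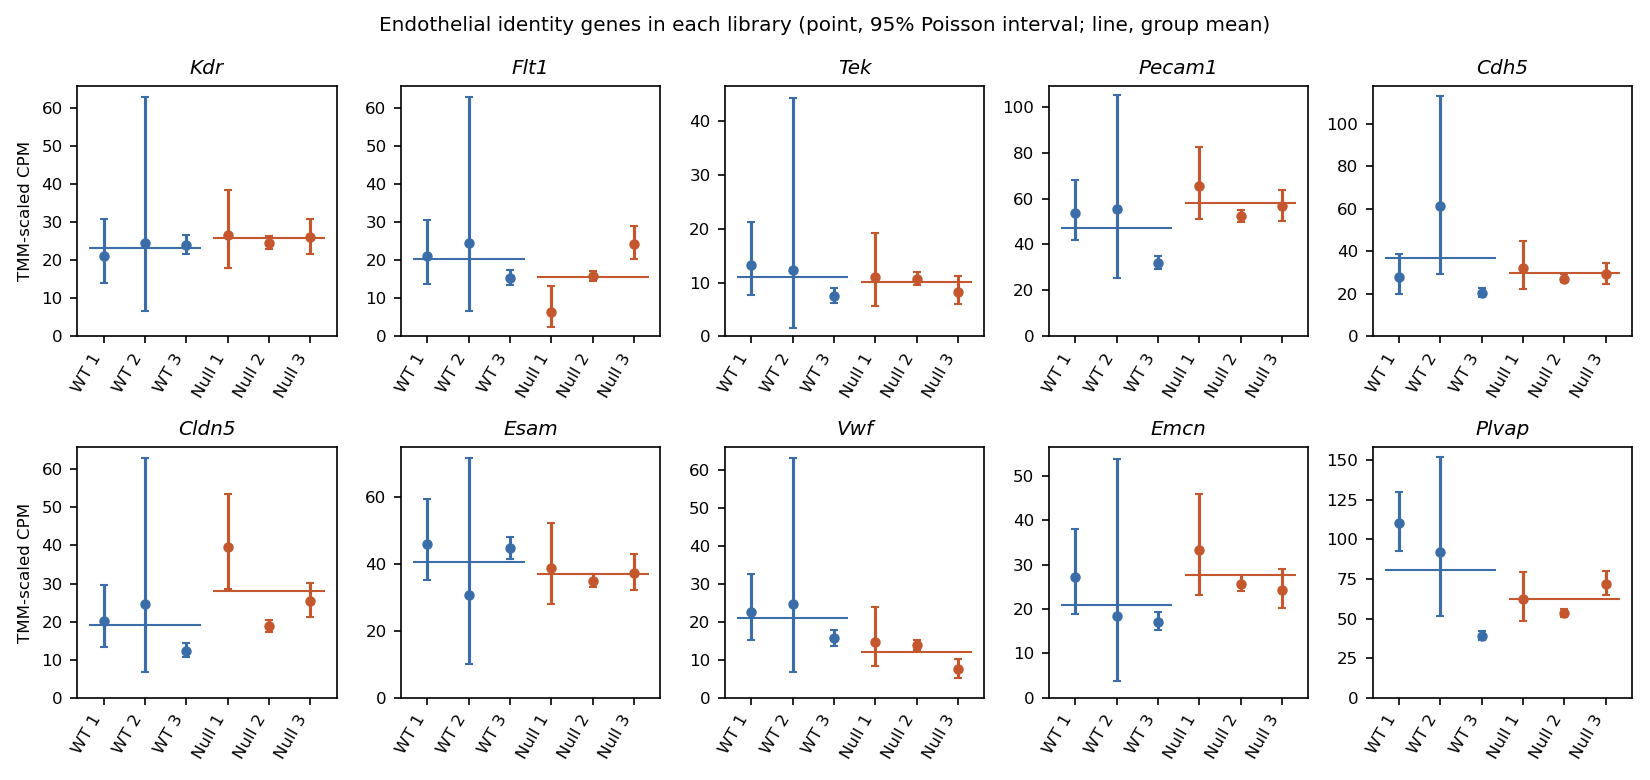
TMM-scaled CPM of each endothelial identity gene (vertical axis, from 0) in wild-type (blue) and null (orange) libraries 1 to 3, with 95% exact Poisson intervals and the mean of each genotype as a line. The intervals of wild-type library 2, with 60 reads over the 10 genes, span most of each panel, and wild-type library 3 is the lowest of the 6 libraries for 6 of the genes: Pecam1, Cdh5, Tek, Emcn, Cldn5 and Plvap.

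Among the growth factor receptors, Kdr, the main signalling receptor of the VEGF pathway, varied least. It stood at 21.1, 24.6 and 24.1 CPM in wild-type libraries 1 to 3 and at 26.7, 24.6 and 26 CPM in null libraries 1 to 3. The null values lay above the wild-type values, but by less than the value of 1 read in wild-type library 2, where Kdr had 4 reads. The means were 23.2 ± 1.89 and 25.8 ± 1.08 CPM (SD, n = 3), with a log2 fold change of 0.15 (SE 0.28, 95% interval -0.45 to 0.76, edgeR adjusted p = 0.764). That interval leaves room for a change of less than 2-fold in either direction.

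Flt1, which binds the same ligand and also acts as a trap for it, was the receptor that varied most. It stood at 21.1, 24.6 and 15.4 CPM in wild-type libraries 1 to 3 and at 6.45, 15.8 and 24.4 CPM in null libraries 1 to 3. Null library 1, with 7 reads (95% exact Poisson interval 2.59 to 13.3 CPM), was below every other library, and null library 3 was level with the highest wild-type value, so the groups overlapped. The fitted difference on the log2 scale was -0.15 (SE 0.42, 95% interval -1.05 to 0.76, edgeR adjusted p = 0.862). Its sign turned on leaving out null library 1 (0.1) or wild-type library 1 (0.039). Reads of Flt1 per read of Kdr, a ratio within 1 library that needs no scaling and was chosen after the values were seen, numbered 1, 1 and 0.637 across the wild-type libraries and 0.241, 0.643 and 0.939 across the null libraries. Null library 1 had the lowest ratio (95% exact interval 0.0893 to 0.563), which restates its 7 reads of Flt1.

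Tek, the angiopoietin receptor, had the fold change closest to none of the 10 genes. It stood at 13.3, 12.3 and 7.55 CPM in wild-type libraries 1 to 3 and at 11.1, 10.7 and 8.26 CPM in null libraries 1 to 3. The groups overlapped, and the log2 fold change was 0.01 (SE 0.4, 95% interval -0.85 to 0.87, edgeR adjusted p = 0.993). A value so near 0 has no stable sign, and it ranged from -0.41 without wild-type library 3 to 0.32 without wild-type library 1. The SE and interval of Tek are unstable for the same reason.

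Promoter sequences were at hand for 5 of the 10 genes, namely Kdr, Flt1, Tek, Emcn and Cldn5. Endothelial genes are known as targets of ETS, GATA and SOX factors, and 3 promoters are shown that differ in whether they hold a short ETS-type core. Each is the 250 bases before the RefSeq start, 5′ to 3′ on the gene's strand, with matches to the motifs searched in capitals (ETS-type AGGAAG and CCGGAAGT, GATA-type AGATAA and SOX-type AACAAT, on both strands, so that CTTCCT is AGGAAG read from the opposite strand). The build is GRCm38.p6, and the positions are chr5:147726012-147726261 on the minus strand for Flt1, chr3:137340828-137341077 on the plus strand for Emcn and chr16:18776597-18776846 on the plus strand for Cldn5.
Flt1: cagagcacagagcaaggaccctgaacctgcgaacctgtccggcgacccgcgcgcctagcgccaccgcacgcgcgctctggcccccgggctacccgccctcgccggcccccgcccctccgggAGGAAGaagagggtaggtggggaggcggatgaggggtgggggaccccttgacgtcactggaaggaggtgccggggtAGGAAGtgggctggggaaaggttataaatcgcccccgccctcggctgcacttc
Emcn: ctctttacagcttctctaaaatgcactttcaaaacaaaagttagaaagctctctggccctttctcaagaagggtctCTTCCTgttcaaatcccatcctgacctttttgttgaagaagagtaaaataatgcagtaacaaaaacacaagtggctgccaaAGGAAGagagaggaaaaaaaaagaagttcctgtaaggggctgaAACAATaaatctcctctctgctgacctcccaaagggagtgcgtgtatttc
Cldn5: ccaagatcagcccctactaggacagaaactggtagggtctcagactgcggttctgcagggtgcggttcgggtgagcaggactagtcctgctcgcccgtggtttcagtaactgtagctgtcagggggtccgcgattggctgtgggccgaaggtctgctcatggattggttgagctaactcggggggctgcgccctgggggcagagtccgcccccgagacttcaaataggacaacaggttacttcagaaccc

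The core AGGAAG occurred in 2 of the 5 promoters, those of Flt1 and Emcn, each with 2 matches, beside 29.5% of all 32851 promoter windows of the same length. The longer CCGGAAGT occurred in 0 of the 5 (2.88% of all windows) and AGATAA in 0 of the 5 (9.99%). AACAAT occurred in 2 of the 5, those of Emcn and Tek (9.42%). The promoter of Cldn5 held none of the 4 motifs. The windows differed in base composition, from 40.8% G or C in Emcn to 70.4% in Flt1, beside a median of 52.4% over all windows. A match is a run of letters and not a measured binding site.

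Of the junction genes, Pecam1, an adhesion molecule that platelets and leukocytes also carry, stood at 53.9, 55.3 and 32 CPM in wild-type libraries 1 to 3 and at 65.4, 52.3 and 56.7 CPM in null libraries 1 to 3. Wild-type library 3 was low and the other 5 lay close together, so the groups overlapped. The log2 fold change was 0.41 (SE 0.28, 95% interval -0.2 to 1.02, edgeR adjusted p = 0.381), and it was 0.064 without wild-type library 3.

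Cdh5, the cadherin of endothelial adherens junctions, stood at 28.1, 61.4 and 20.4 CPM in wild-type libraries 1 to 3 and at 32.2, 27.2 and 29.3 CPM in null libraries 1 to 3. The high value in wild-type library 2 rested on 10 reads (95% exact Poisson interval 29.5 to 113 CPM), and the 3 null values lay within the wild-type range. The wild-type mean of 36.6 ± 21.8 CPM was above the null mean of 29.6 ± 2.53 CPM (SD, n = 3), while the fitted log2 fold change, which weights libraries by their depth, was 0.06 (SE 0.35, edgeR adjusted p = 0.931). Its sign turned without wild-type library 3 (-0.3).

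Cldn5, the tight junction claudin of endothelium, had the highest log2 fold change of the 10. It stood at 20.3, 24.6 and 12.4 CPM in wild-type libraries 1 to 3 and at 39.6, 18.9 and 25.4 CPM in null libraries 1 to 3. Null library 1 was the highest and wild-type library 3 the lowest, and the groups overlapped through null library 2. The means were 19.1 ± 6.17 and 28 ± 10.6 CPM (SD, n = 3). On the log2 scale the fold change was 0.71 (SE 0.39, 95% interval -0.13 to 1.54, edgeR adjusted p = 0.271), and it was 0.29 without wild-type library 3 and 0.41 when null library 1 was left out. Null library 1 thus combined the highest Cldn5 with the lowest Flt1 of the 6 libraries.

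Esam, a junction adhesion molecule of endothelium and platelets, stood at 46.1, 30.7 and 44.7 CPM in wild-type libraries 1 to 3 and at 38.7, 35 and 37.2 CPM in null libraries 1 to 3. Unlike the other junction genes it was not low in wild-type library 3, and the groups overlapped. The log2 fold change was -0.24 (SE 0.25, 95% interval -0.77 to 0.3, edgeR adjusted p = 0.58), and with any 1 library left out it stayed between -0.29 and -0.18.

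Of the genes of vessel type and function, Vwf had the lowest log2 fold change of the 10. It stood at 22.6, 24.6 and 15.6 CPM in wild-type libraries 1 to 3 and at 14.7, 13.8 and 7.48 CPM in null libraries 1 to 3. All 3 null values lay below all 3 wild-type values, with null library 1 (14.7 CPM) and wild-type library 3 (15.6 CPM) the nearest to each other. The means were 20.9 ± 4.72 and 12 ± 3.95 CPM (SD, n = 3). Its log2 fold change was -0.71 (SE 0.38, 95% interval -1.53 to 0.11, edgeR adjusted p = 0.262), and with any 1 library left out it stayed between -0.99 and -0.46. In limma-voom with mouse number as a random effect it was -0.31 (adjusted p = 0.644), and with the libraries of a shared mouse number summed in both genotypes it was -0.47 (edgeR adjusted p = 0.654). An exact permutation test of the 3 against 3 libraries gave p = 0.1, two-sided, the smallest that this design allows. Any gene whose groups do not overlap gets this value, Kdr included, so the test only restates the lack of overlap. Vwf and Kdr were the 2 of 10 genes whose groups did not overlap, beside 30.5% of all tested genes.

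Emcn, the endothelial sialomucin, stood at 27.3, 18.4 and 17.2 CPM in wild-type libraries 1 to 3 and at 33.2, 25.7 and 24.4 CPM in null libraries 1 to 3. Wild-type library 1 lay among the null values, and wild-type library 2 had 3 reads. The log2 fold change was 0.37 (SE 0.31, 95% interval -0.31 to 1.05, edgeR adjusted p = 0.479), and it was 0.068 without wild-type library 3.

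Plvap, the diaphragm protein, stood at 110, 92.2 and 39.2 CPM in wild-type libraries 1 to 3 and at 62.6, 53.2 and 72 CPM in null libraries 1 to 3. The null values fell in the gap between wild-type library 3 and the other wild-type libraries. The spread within wild type (80.5 ± 36.9 CPM, SD, n = 3) exceeded the difference from the null mean of 62.6 ± 9.4 CPM. The log2 fold change was -0.27 (SE 0.35, 95% interval -1.04 to 0.49, edgeR adjusted p = 0.659). It was -0.76 without wild-type library 3 but 0.31 when wild-type library 1 was left out, so that 1 wild-type library decided its sign. Pooled over the reads of each genotype, where the deepest libraries dominate, Plvap was the higher in null tumours (56 CPM, against 44.9 CPM in wild type), the reverse of the means over libraries.

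**Figure D2:**
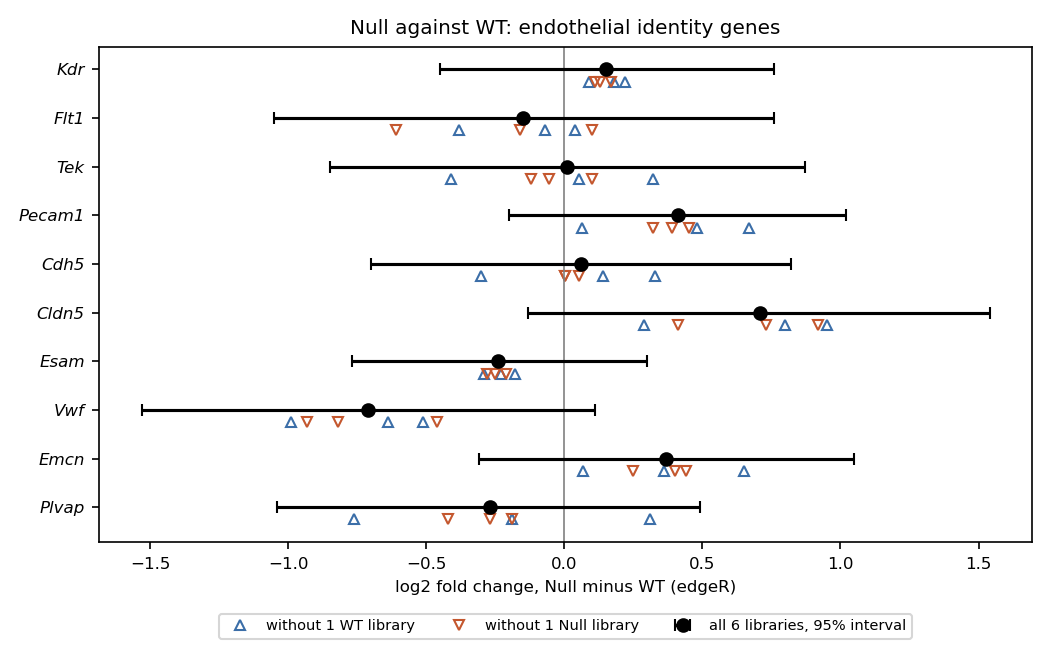
Log2 fold change, null minus wild type (horizontal axis), of the 10 genes in edgeR's fit of all 6 libraries with its 95% interval (black), and the value with 1 wild-type (blue, upward triangle) or 1 null (orange, downward triangle) library left out. All 10 intervals include 0. Kdr and Esam move least with the choice of libraries, and Flt1, Tek, Cdh5 and Plvap have triangles on both sides of 0.

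Intervals of the fold changes show how much the data can tell. For 4 of the 10 genes, Cdh5, Kdr, Tek and Esam, the 95% interval lay within 2-fold in both directions, beside 36.4% of all tested genes. The interval of Tek cannot be relied on. Its SE was 0.397 in the main fit, 0.747 with DESeq2 size factors in edgeR and 0.0713 with a filter of 10 CPM in 3 libraries. For Pecam1, Emcn and Cldn5 a rise of over 2-fold was within the interval, and for Flt1, Vwf and Plvap a fall of over 2-fold was. A p above the threshold does not show that these levels were alike.

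Per kilobase of annotated exon, the 10 genes formed an order that most libraries shared. Plvap led with 36 ± 13.1 CPM per kilobase (SD, n = 6 libraries of both genotypes), followed by Cldn5 (16.6 ± 6.46), Esam (13.5 ± 2.03), Pecam1 (8.45 ± 1.78), Cdh5 (7.88 ± 3.43) and Emcn (4.51 ± 1.09). At the lower end were Kdr (2.71 ± 0.215), Tek (2.23 ± 0.474), Flt1 (1.33 ± 0.512) and Vwf (1.03 ± 0.389 CPM per kilobase). Plvap was above Cldn5, Esam above Pecam1, Cdh5 above Emcn and Emcn above Kdr in 6 of 6 libraries. Pecam1 and Cdh5, and each neighbouring pair from Kdr down to Vwf, kept their order in 5 of 6 libraries, and Cldn5 lay above Esam in 4 of 6. The order of these pairs was thus not shared by all libraries. Lengths join the exons of all annotated transcripts of a later build, so the order depends on which transcripts the tumours use.

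The makeup of the endothelial reads needs no scaling between libraries. Pecam1 took 14.8%, 15% and 14% of the reads of the 10 genes in wild-type libraries 1 to 3, against 19.8%, 18.9% and 18.2% in the null libraries. Vwf took 6.22%, 6.67% and 6.83% in wild type and 4.46%, 4.97% and 2.4% in null tumours. Neither pair of groups overlapped. With the shares of Emcn (6.68 ± 1.46% and 9.05 ± 1.11%) and Cldn5 (5.89 ± 0.674% and 8.98 ± 2.68%, SD, n = 3), which were also higher in all 3 null libraries, 4 of 10 genes had groups that did not overlap. Beside this, 23.6% of all tested genes did not overlap when set against the same endothelial reads. A share of a whole must fall where others rise, so the 4 are not separate observations.

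Reads of Vwf per read of Pecam1, a ratio chosen after the values were seen, brought the opposite shares together. It was 0.42, 0.444 and 0.487 in wild-type libraries 1 to 3, against 0.225, 0.263 and 0.132 in the null libraries. The ratio was lower in all 3 null libraries, which follows from the shares of Vwf and Pecam1 and is not a separate observation. The interval of the shallow wild-type library 2 (0.1 to 1.59) covered both groups. Both genes are also made by cells of the platelet lineage, whose markers are given below, and the part of that lineage in the ratio was not tested.

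**Figure D3:**
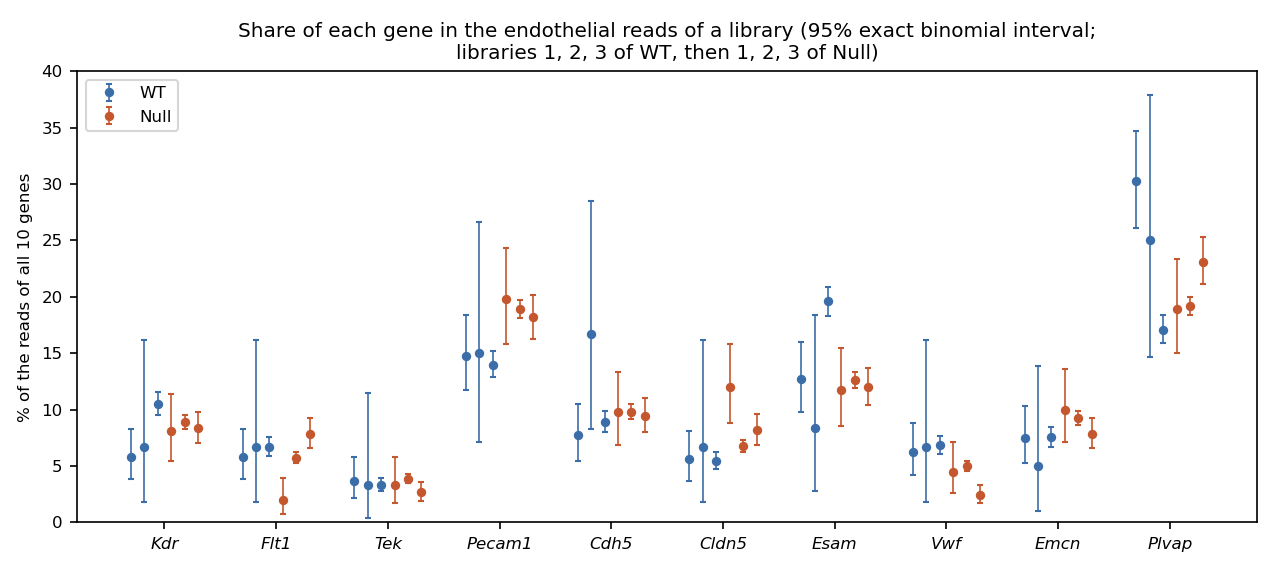
Share of each gene in the reads of all 10 genes of the same library (vertical axis, percent), for wild-type libraries 1 to 3 (blue) and null libraries 1 to 3 (orange), with 95% exact binomial intervals. The null libraries lie above the wild-type libraries for Pecam1, Cldn5 and Emcn and below them for Vwf, and null library 1 stands apart for Flt1 at 1.95%.

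Other genes of blood vessels were read from lists that complete the pathway. Over all tested genes, edgeR called 2.26% higher and 3.52% lower in null tumours, and 25.1% had an unadjusted p under 0.05. These shares stand beside the edgeR counts of every list, keratinocyte markers included. Of 20 further surface and junction genes common to endothelium, 0 passed with edgeR and 0 with DESeq2, and 6 and 5 had an unadjusted p under 0.05. With mouse number as a random effect in limma-voom 2 rose, Cav1 and Clec14a (chosen after its values were seen). Their median log2 fold change was 0.33, beside 0.0106 over all tested genes. Their summed level was higher in the null libraries (1510 to 1770 CPM) than in the wild-type libraries (878 to 1350 CPM). Most of that difference lay in Cav1, the caveolin of many cell types (517 ± 150 and 916 ± 100 CPM, SD, n = 3; edgeR adjusted p = 0.105), and Cd34, which stromal and blood progenitor cells also carry (164 ± 35.2 and 253 ± 80.7 CPM; edgeR adjusted p = 0.194). The sum of the other 18 overlapped, from 408 to 552 CPM in wild-type and from 492 to 510 in null libraries. Cav1 and Cd34 were set apart after the values were seen, so this overlap is a description only. Taken singly, 9 of the 20 genes had groups that did not overlap, beside 30.5% of all tested genes. Cav1, Cd34, Egfl7, Ecscr, S1pr1, Adgrl4, Icam2 and Clec14a were higher in every null library than in any wild-type library, and Robo4 was lower. Cd93, a C-type lectin-like receptor of endothelium, stood at 106 ± 4.98 and 100.1 ± 26.1 CPM (SD, n = 3; edgeR adjusted p = 0.899).

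Of 14 tested endothelial transcription factors 1 fell and 0 rose (median log2 fold change 0.02). The gene that fell was Ets2, an ETS factor of many cell types, which stood at 194, 178 and 122 CPM in wild-type libraries 1 to 3 and at 82.9, 78.8 and 70.2 CPM in null libraries 1 to 3. The groups did not overlap, and the change was 2.1-fold (log2 fold change -1.07, SE 0.26, edgeR adjusted p = 0.0307). Ets2 no longer passed when any 1 library but wild-type library 3 was left out, nor in the 3 fits that take the shared mouse numbers into account (highest adjusted p = 0.176). Ets1 (59.8 ± 29.8 and 53.2 ± 10.8 CPM), Mef2c (50.1 ± 8.41 and 47.6 ± 7.26 CPM) and the flow-responsive Klf2 (47.6 ± 11.8 and 38.4 ± 12.6 CPM, SD, n = 3) did not pass (edgeR adjusted p = 0.862, 0.87 and 0.462).

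Among 11 ligands and co-receptors of the VEGF and angiopoietin systems 2 rose and 0 fell (median log2 fold change 0.1). Vegfa, the ligand of Kdr and Flt1, did not pass, at 127 ± 33.8 and 122 ± 18.2 CPM (SD, n = 3; edgeR adjusted p = 0.869). Angpt1, the activating ligand of Tek, stood at 33.6, 98.3 and 37.8 CPM in wild-type libraries 1 to 3 and at 180, 89.1 and 111 CPM in null libraries 1 to 3. It rose 2.78-fold (log2 fold change 1.47, SE 0.39, edgeR adjusted p = 0.0437), although wild-type library 2 lay within the null range. Angpt1 no longer passed when library 1 or 3 of either genotype was left out, with library totals only and with a filter of 10 CPM (highest adjusted p = 0.165). Vegfd, a ligand of the lymphatic receptor Flt4, averaged 12 ± 5.29 CPM with wild-type Kindlin-1 and 32.8 ± 5.05 CPM without it (SD, n = 3), a fitted rise of 2.29-fold (edgeR adjusted p = 0.0433). That call was lost without any 1 of the 6 libraries and in 12 of 16 alternatives in all (other scalings, filters and tools, sums over a mouse number and libraries left out; highest adjusted p = 0.151). The co-receptors Nrp1 (372 ± 347 and 244 ± 125 CPM) and Nrp2 (211 ± 12.4 and 226 ± 28.6 CPM) did not pass (edgeR adjusted p = 0.499 and 0.832). The receptors Kdr, Flt1 and Tek, described above, did not pass beside these ligands.

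Of 11 tested genes of arteries, tip cells and Notch signalling 2 fell and 0 rose (median log2 fold change -0.38). Notch4, the Notch receptor most associated with endothelium, averaged 68.6 ± 24.8 CPM with wild-type Kindlin-1 and 34.1 ± 3.7 CPM without it (SD, n = 3), a 2.19-fold fall (log2 fold change -1.13, SE 0.27, edgeR adjusted p = 0.0307). It no longer passed when wild-type library 3 or any 1 null library was left out, nor when libraries sharing a mouse number were summed in both genotypes (highest adjusted p = 0.136). Unc5b, a netrin receptor of tip and arterial cells, averaged 91 ± 17.4 CPM with wild-type Kindlin-1 and 31.6 ± 10.3 CPM without it (SD, n = 3). It fell 2.65-fold (log2 fold change -1.4, SE 0.28, edgeR adjusted p = 0.0152), a call lost without null library 1 or 3 (highest adjusted p = 0.0654). Jag2, Efnb2 and Notch1 did not pass, with log2 fold changes of -0.38, -0.5 and 0.06.

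Of 5 tested venous and activation genes 1 rose, the leukocyte adhesion receptor Vcam1. It stood at 64, 18.4 and 40 CPM in wild-type libraries 1 to 3 and at 105, 126 and 125 CPM in null libraries 1 to 3, with no overlap (2.6-fold, log2 fold change 1.38, SE 0.3, edgeR adjusted p = 0.0227). Vcam1 no longer passed when wild-type library 3 or null library 1 or 3 was left out, nor when libraries sharing a mouse number were summed in both genotypes (highest adjusted p = 0.074). Nr2f2, the venous fate factor (edgeR adjusted p = 0.206), Ephb4 (0.912) and Lrg1 (0.308) did not pass. The venule genes Ackr1, Selp and Sele had too few reads to be tested.

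Of 5 tested genes of the capillaries of fat and muscle 1 rose, the water channel Aqp1. It stood at 306, 399 and 86.2 CPM in wild-type libraries 1 to 3 and at 1490, 1100 and 1380 CPM in null libraries 1 to 3. The groups lay far apart, and the change was 5.28-fold (log2 fold change 2.4, SE 0.46, edgeR adjusted p = 0.0117), a call lost without null library 1 (edgeR adjusted p = 0.0654). In every null library Aqp1 alone exceeded the summed level of the endothelial identity genes (277 to 331 CPM in null libraries). Which cells carried Aqp1 was not tested, so its rise cannot be assigned to capillaries. The fatty acid-binding protein Fabp4 (log2 fold change -0.5), Rgcc (0.53) and the lipase anchor Gpihbp1 (0.81) did not pass.

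Of the lymphatic genes, Lyve1, a hyaluronan receptor that resident macrophages also carry, stood at 14.1, 12.3 and 8.74 CPM in wild-type libraries 1 to 3 and at 62.6, 70.8 and 43.1 CPM in null libraries 1 to 3. It rose 5.56-fold without overlap (log2 fold change 2.48, SE 0.34, edgeR adjusted p = 0.0016), and the call held in 16 of 16 alternatives. Prox1, the factor that defines lymphatic fate, had 0 reads in 4 libraries and at most 4 reads in the others, and Mmrn1 had 0 reads in all 6. Pdpn (log2 fold change -2.29, edgeR adjusted p = 0.051) and the receptor Flt4 (-0.66, 0.473) did not pass.

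**Figure D4:**
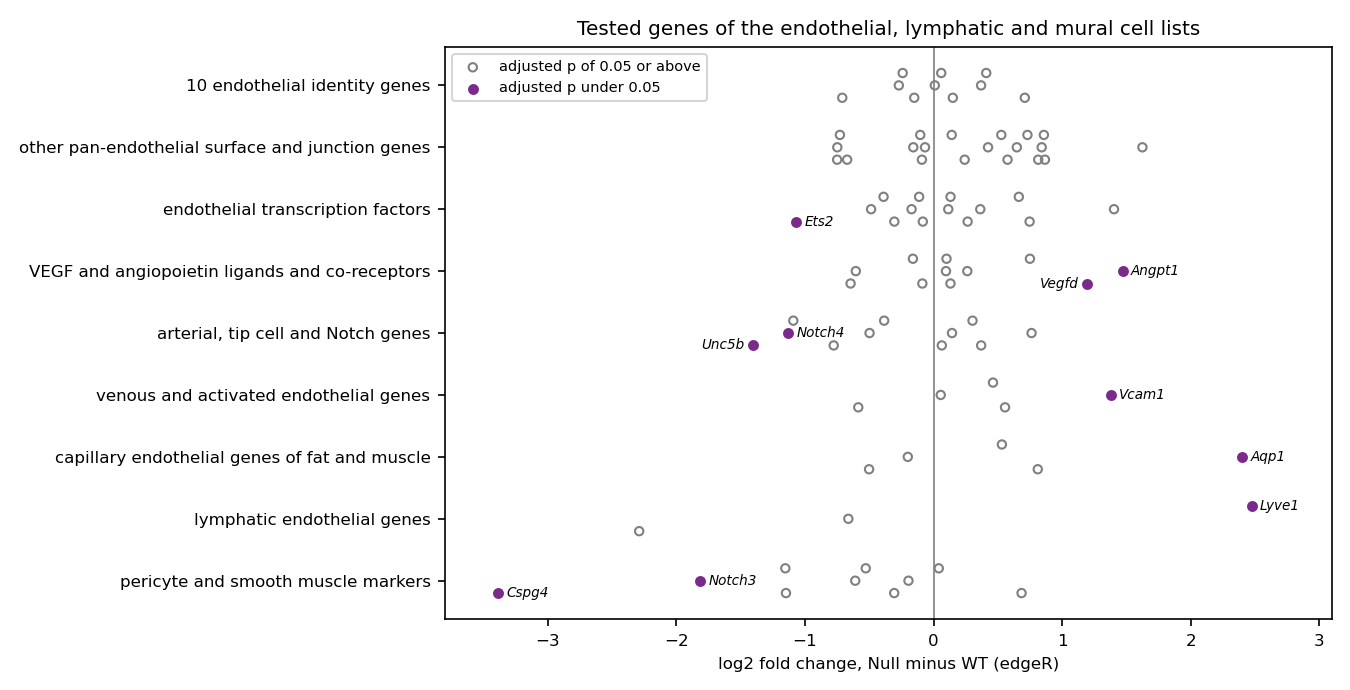
Log2 fold change, null minus wild type (horizontal axis), of every tested gene of the 10 endothelial identity genes and of 8 lists of endothelial, lymphatic and mural genes, each list on a row with its points staggered for legibility. Filled points passed edgeR's test at an adjusted p under 0.05 and are named, and the 10 identity genes lie between -0.71 and 0.71 with none filled.

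Mural cells, the pericytes and smooth muscle cells that wrap vessels, had 2 of 10 tested markers lower and 0 higher in null tumours (median log2 fold change -0.57). Cspg4, the NG2 proteoglycan of pericytes and other progenitor cells, stood at 50, 49.1 and 51.4 CPM in wild-type libraries 1 to 3 and at 5.53, 4.28 and 5.31 CPM in null libraries 1 to 3. It fell 10.4-fold (log2 fold change -3.38, SE 0.31, edgeR adjusted p = 0.000125), and the call held in 16 of 16 alternatives. Notch3, the mural Notch receptor, averaged 13.3 ± 4.75 CPM with wild-type Kindlin-1 and 2.82 ± 1.01 CPM without it (SD, n = 3), a 3.52-fold fall (edgeR adjusted p = 0.0398). Notch3 no longer passed when any 1 of the 6 libraries was left out, nor in the 3 fits that take the shared mouse numbers into account (highest adjusted p = 0.164). Rgs5, a pericyte marker, stood at 52.5 ± 4.91 and 42.8 ± 10.9 CPM, Pdgfrb at 176 ± 28.9 and 118 ± 51.4 CPM and Acta2 at 319 ± 160 and 321 ± 69.4 CPM (SD, n = 3; edgeR adjusted p = 0.498, 0.306 and 0.959).

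Other cells that can carry endothelial identity genes were read in the same way. Of 8 platelet and megakaryocyte markers 3 were tested and 0 passed with edgeR, with 1 at an unadjusted p under 0.05 (Pf4, 76.5 ± 33.9 and 148 ± 15.8 CPM, SD, n = 3; edgeR adjusted p = 0.0905). The count was 0 with DESeq2 and 1, Pf4, with limma-voom. Their summed level was higher in null tumours (185 to 235 CPM) than in wild type (117 to 141 CPM), most of which was Pf4. The other tested markers were Itga2b (32.6 ± 19.1 and 50.3 ± 13.9 CPM) and Gp1bb (15.8 ± 8.79 and 10.4 ± 1.87 CPM, SD, n = 3), with log2 fold changes of 0.36 and -0.77 (edgeR adjusted p = 0.544 and 0.24). The defining marker Gp6 had 0 reads in all 6 libraries. Of 6 pan-leukocyte markers 0 passed with edgeR, DESeq2 or limma-voom, with 1, 1 and 2 at an unadjusted p under 0.05, and their summed level was lower in null tumours (964 to 1210 CPM) than in wild type (1350 to 1460 CPM). Most of that difference lay in Laptm5, which was lower in all 3 null libraries (594 ± 163 and 349 ± 159 CPM, SD, n = 3). Cd53 was higher in all 3 (69.29 ± 12.05 and 97.94 ± 12.44 CPM), and the groups of the other pan-leukocyte markers overlapped. Of 9 macrophage markers 0 passed with any of the 3 tools, with 0, 0 and 1 at an unadjusted p under 0.05 (summed level 3100 to 4960 CPM in wild-type and 3250 to 4250 in null libraries). The part of these cells in the levels of Pecam1, Vwf and Esam was not tested.

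Several tissue markers changed with genotype. Skeletal muscle markers fell in 13 of 14 tested genes (9 to 13 with 1 library left out, 7 in limma-voom), and their summed level was 629 to 1680 CPM in wild-type and 57.3 to 141 in null libraries. Both tested adipocyte markers, Car3 and Cfd, fell, and Car3 lost its call, among others, without library 1 or 2 of wild type and library 1 or 3 of the null group (highest adjusted p = 0.309; summed level of the list 28.8 to 137 CPM in wild-type and 1.84 to 6.53 in null libraries). Of 8 fibroblast markers 2 rose, Dcn and Lum, and 1 fell, Col1a2, with a summed level of 6980 to 13000 CPM in wild-type and 12900 to 15400 in null libraries. Dcn no longer passed without wild-type library 2 (edgeR adjusted p = 0.0598) or without null library 1 or 3. It also failed with libraries of a shared mouse number summed, where its adjusted p was highest (0.092, edgeR, both genotypes summed). Col1a2 no longer passed without null library 1 (edgeR adjusted p = 0.093) or 3, nor with libraries of a shared mouse number summed in both genotypes. Muscle and fat have their own vessels, and the part of such tissue in the endothelial levels was not tested. With the muscle and adipocyte markers left out of the library sizes and the scaling, the median log2 fold change of the 10 genes was 0.04 and 0 passed.

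**Figure D5:**
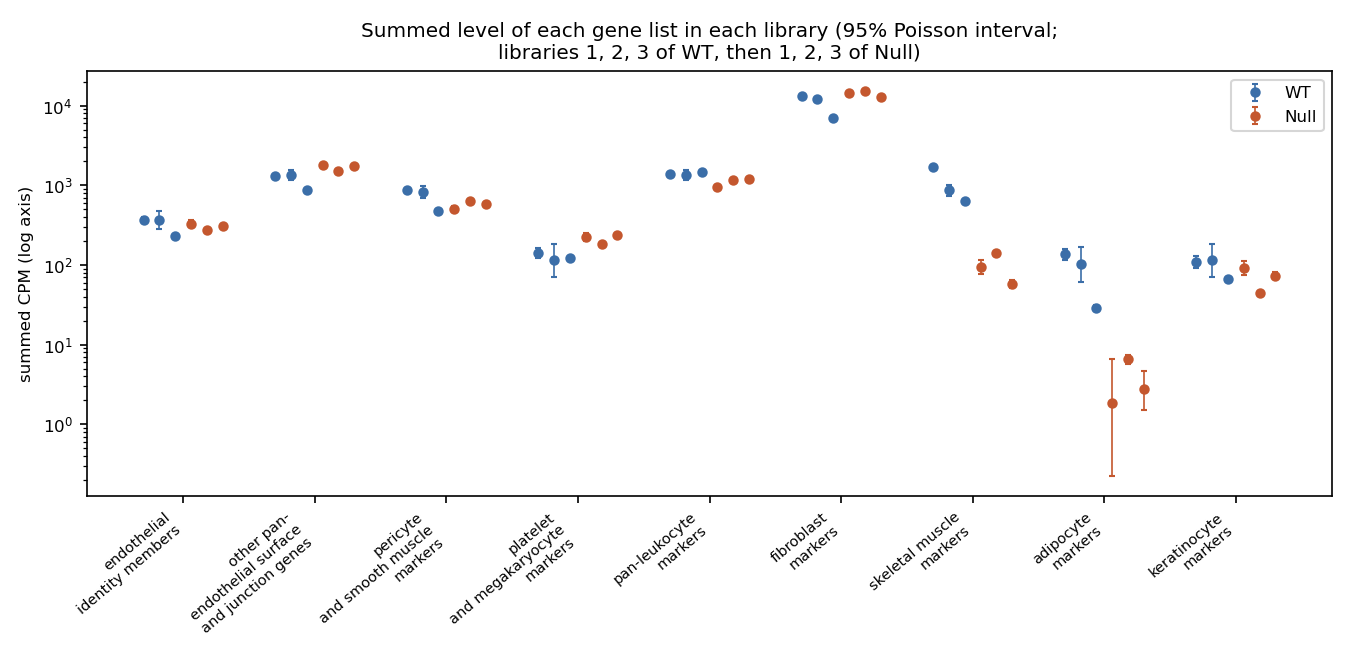
Summed CPM of 9 gene lists (vertical axis, logarithmic) in wild-type libraries 1 to 3 (blue) and null libraries 1 to 3 (orange), with 95% exact Poisson intervals. The endothelial identity genes overlap between genotypes (229 to 369 and 277 to 331 CPM), as do the pericyte, fibroblast and keratinocyte lists. The skeletal muscle, adipocyte and pan-leukocyte lists lie lower in all null libraries. The other pan-endothelial and the platelet lists lie higher in all of them.

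Across the 6 libraries, the tested genes whose log2 CPM followed the mean of the 10 genes most closely were Cnn3 (Pearson r = 0.996), Sspn (0.987), Zmat5 (0.986), Ankrd49 (0.985) and Tshz1 (0.982), out of 11877 genes compared. None of them is on the endothelial lists. Cnn3, an actin-binding calponin, averaged 768 CPM with wild-type Kindlin-1 and 745 CPM without it. The 6 points share their libraries and differ widely in depth, and 129 genes reached an r over 0.9, so the values describe these libraries only. Among the 10 genes themselves, Pecam1 and Cldn5 followed each other most closely (r = 0.91 over 6 libraries), and Cdh5 and Esam were the pair furthest opposed (r = -0.79), a pair in which wild-type library 2, with 10 and 5 reads, was the extreme point of both.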

How the data were processed

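The files that the authors deposited hold raw counts, whole numbers of reads for each Ensembl gene identifier, with a separate file for every library. Per the submitters' processing notes, TopHat2, Cuffdiff and DESeq2 and the build mm9 were used. The sources used here name no counting program, annotation or strand setting. No exon of the 10 genes overlapped another gene in GENCODE M21. Each file ends in 5 lines that name no gene, left out here. Reads with several alignments were 32.9% to 40% of all listed reads and reads in no gene 4.63% to 12%. The share in no gene was higher with wild-type Kindlin-1 (7.15%, 8.75%, 12%) than without it (5.84%, 5.55%, 4.63%), and the genotypes did not overlap. Wild-type library 3 had the highest share of both kinds of read. Whether this difference affects the gene levels was not tested. Symbols came from GENCODE M21 (GRCm38) by identifier, for 32919 of 37991 genes (86.6%). As that build differs from mm9, it served for names and exon lengths only, and the promoters are RefSeq's for GRCm38.p6.

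Null minus wild type was tested in R 4.3.3 with edgeR 4.0.16 (quasi-likelihood, robust, TMM, default expression filter) with Benjamini-Hochberg adjustment at 0.05. DESeq2 1.42.0 and limma 3.58.1 (voom, mouse number as a random effect, consensus correlation 0.597) were alternatives, beside other scalings and count filters, each library left out, libraries of a shared mouse number summed, and muscle and adipocyte markers left out of the scaling. Standard errors were computed as the log2 fold change over the root of the F value, which is unstable where the fold change is near 0. The fit was also run on simulated counts of independent libraries, so that run does not cover libraries that share a mouse number. All 10 genes are named, and of each other list the genes that passed and up to 3 others with the highest mean. The 5 genes most like the 10 were chosen by Pearson r on log2 CPM (prior count 3). The genes and lists were chosen with earlier results of these data known.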

Additional observations from a re-analysis of the deposited data

How the results depend on the processing

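The count of genes that passed, 688 with all libraries, was 179 to 855 with 1 library left out. Leaving out null library 1 gave 179, null library 3 gave 225 and wild-type library 3 gave 281, and the cause was not tested. The count of endothelial identity genes that passed was 0 in all 16 alternatives, and all 10 were tested in each. Pecam1, Kdr, Emcn and Cldn5 stayed above 0 and Vwf and Esam below 0 in all 16. Tek turned below 0 with DESeq2 size factors in edgeR (-7.9e-05), library totals only (-0.042), DESeq2's test (-0.041) and a filter of 10 CPM in 3 libraries (-2.1e-05), and ranged from -0.41 to 0.32 with 1 library left out. Cdh5 turned with DESeq2's test (-0.035) and ranged from -0.3 to 0.33 with 1 library left out, Flt1 from -0.61 to 0.1. Plvap turned in limma-voom with mouse number as a random effect (0.13) and ranged from -0.76 to 0.31. Limma-voom also moved Pecam1 to 0.62, Cdh5 to 0.4, Tek to 0.38 and Vwf to -0.31, none of which passed. The smallest adjusted p of any of the 10 in any alternative was 0.121 (Plvap, edgeR without wild-type library 3). No paired analysis was possible because the labels give no replicate numbers shared between genotypes. Wild-type library 2, with 60 reads over the 10 genes, limits every level: a floor of 3 counts stands at 18.4 CPM there.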
